A study of Homo sapiens with 6 samples.

Results

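IL24 and 8 genes of the interleukin 1 (IL1) family were followed in LX-2 cells, an immortalised line derived from human hepatic stellate cells, after exposure to recombinant human Sema3C (rhSema3C). The 9 genes were found by their names in a table of 33900 genes and comprised the ligands IL24, IL1A, IL1B, IL33 and IL18, the antagonist IL1RN and the receptor chains IL1R1, IL1RAP and IL1RL1. IL24 was chosen by its measured rise in this very comparison, so its values are given as a description without a test. The other 8 were picked as alarm cytokines of stromal cells and their receptors, with earlier results of these data known. Cells labelled as wild type (WT) received rhSema3C at 300 ng/ml or PBS alone for 48 h, in the same serum-containing medium, with 3 samples per group. The labels call them biological replicates without saying whether they came from separate cultures, so p-values measure the spread between these samples. A single cell line grown alone stood for the stellate cell, and no other liver cell was present as a source or a target of the cytokines.

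IL1 family cytokines are early alarm signals that tell neighbouring cells of damage or infection. IL1A and IL1B bind the receptor IL1R1, which needs the accessory chain IL1RAP to signal, and IL1RN occupies the same receptor without activating it. IL33 signals through IL1RL1, also called ST2, with the same accessory chain, and IL18 uses a receptor of its own. IL24 belongs to the IL20 subfamily, whose members signal through the chains IL20RA, IL20RB and IL22RA1 and the JAK and STAT proteins. In the liver, macrophages are a well-known source of IL1B, and stellate cells carry receptors for it.

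The total count on genes lay between 68267808 and 89245585 per sample. Levels are given as CPM, counts scaled to the library size as normalised by the TMM method, which compares samples, or as FPKM, which compares genes. The FPKM are the authors' values, scaled by depth and transcript length, and TMM was not applied to them. Between groups they run slightly higher with rhSema3C. The median log2 fold change of all tested genes was 0.12 on log2(FPKM + 0.1), against 0.02 in the main fit. Of the 9 genes, 6 reached a mean FPKM of 0.5 over the 6 samples and so entered the test of 14178 genes, while IL18, IL1RN and IL1RL1 did not. Of 9 stellate and mesenchymal markers, 7 entered the test, but COL1A2 stayed between 0.0576 and 0.144 FPKM and DES at or below 0.0557 FPKM, so these defining markers were almost absent. Other markers were clearly expressed. With PBS, TIMP1 averaged 229.9, SPARC 114, COL1A1 96.0, COL3A1 22.7, ACTA2 14.3 and PDGFRB 4.69 FPKM. The summed level of the 9 markers was 1496 to 1549 FPKM with PBS and 1191 to 1257 FPKM with rhSema3C. Most of it was VIM, at means of 1035 and 834 FPKM. Of the 7 tested markers, 6 were lower and 0 higher at an edgeR adjusted p below 0.05. Among all tested genes 30.6% were lower and 31.7% higher. The lower markers included COL1A1 (log2 fold change -0.78) and ACTA2 (log2 fold change -0.56). By qRT-PCR, the paper reports higher mRNA of both in LX-2 cells given rhSema3C. Markers of epithelial cells and hepatocytes summed to at most 0.113 FPKM. Endothelial markers summed to 0.797 to 1.05 FPKM with PBS and 1.26 to 1.67 FPKM with rhSema3C, a difference carried by VWF at 0.0902 to 0.120 and 0.542 to 0.760 FPKM, while KDR averaged 0.723 and 0.720 FPKM. PECAM1 and CDH5 were at most 0.0865 FPKM. The part of these marker shifts in the results was not tested.

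The sequences just upstream of IL24, IL1A and IL1B are shown because these 3 cytokine transcripts were each higher with rhSema3C, IL24 having been chosen for that. Each line gives the 250 bases before the gene's RefSeq start on the gene's own strand, 5′ to 3′, from RefSeq on GRCh38.p14. The windows are chr1:206897193-206897442 on the plus strand for IL24, chr2:112784494-112784743 on the minus strand for IL1A and chr2:112836780-112837029 on the minus strand for IL1B. Capitals mark a match to any of 4 searched motifs.
IL24: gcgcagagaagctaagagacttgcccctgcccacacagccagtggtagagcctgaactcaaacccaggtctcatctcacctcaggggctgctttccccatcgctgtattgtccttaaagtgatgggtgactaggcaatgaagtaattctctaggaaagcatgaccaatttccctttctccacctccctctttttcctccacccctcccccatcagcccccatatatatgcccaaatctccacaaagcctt
IL1A: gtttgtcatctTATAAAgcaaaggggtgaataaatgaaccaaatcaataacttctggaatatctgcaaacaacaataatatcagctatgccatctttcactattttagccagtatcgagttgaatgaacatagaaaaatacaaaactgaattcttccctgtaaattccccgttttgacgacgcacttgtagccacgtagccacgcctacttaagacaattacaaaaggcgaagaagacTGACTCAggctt
IL1B: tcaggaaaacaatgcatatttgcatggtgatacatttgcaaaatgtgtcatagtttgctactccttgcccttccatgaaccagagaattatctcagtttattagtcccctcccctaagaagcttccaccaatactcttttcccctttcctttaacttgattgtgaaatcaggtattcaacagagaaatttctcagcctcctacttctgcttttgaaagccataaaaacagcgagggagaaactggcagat
Both strands were searched for an NF-κB motif (GGNNTTTCC), an AP-1 motif (TGANTCA), an ATF4 motif (TGATGNAA) and a TATA box (TATAAA), where N is any base. In the IL1A window, the AP-1 match lay 12 bases before the start and the TATA box letters 239 bases before it. The windows printed for IL24 and IL1B held no match. RefSeq windows were at hand for 8 of the 9 genes, 16 windows in all. Among them an AP-1 match was found for IL1A, IL1RL1 and IL1RN, and an NF-κB match for IL1RN. TATA box letters were found for IL1A, IL1R1, IL1RL1 and IL1RN, and no ATF4 match was found. Among 35116 windows of all genes, 5.48% held the NF-κB letters, 6.57% the AP-1 letters, 3.14% the ATF4 letters and 10.7% the TATA box letters. A match describes the letters only and shows no binding.

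IL24, a secreted cytokine known for its action on epithelial cells, went from a low to a moderate level. The gene (ENSG00000162892) spans chr1:206897443-206904139 on the plus strand. Its level was 4.77, 5.08 and 5.25 CPM in the PBS samples and 41.0, 35.3 and 37.5 CPM in the rhSema3C samples. Every rhSema3C sample stood far above every PBS sample, and the samples of a group lay close together. The means were 5.03 ± 0.245 CPM with PBS and 38.0 ± 2.87 CPM with rhSema3C (SD, n = 3). This was a 7.55-fold higher level, or 2.92 on the log2 scale with a standard error (SE) of 0.09. Per length, IL24 went from 2.39 to 19.4 FPKM and from rank 9348 to rank 2384 of the 33900 genes. Of its 6697 bases, 823 are shared with FCMR on the opposite strand. FCMR had only 118 to 225 counts per sample against 347 to 3554 for IL24, and whether strand was used in the counting is not given in the sources used here. Because these are bulk samples, more cells making a transcript and more transcript per cell cannot be told apart for any gene here.

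Of the 5 genes other than IL24 that entered the test, IL1A, IL1B, IL1R1 and IL1RAP rose and IL33 did not pass in either direction (edgeR's quasi-likelihood test, Benjamini-Hochberg adjusted p below 0.05). Such rises were common, being called for 31.7% of all tested genes. None of the 5 fell, where 30.6% of all tested genes did. None fell at an unadjusted p below 0.05 either, and DESeq2 also called 0 lower. IL1A rose by more than 2-fold and IL1RAP by 2.01-fold, a size lost under several alternatives. A rise above 2-fold with an unadjusted p below 0.05 was found in 3.42% of all tested genes. The 5 genes together had a median log2 fold change of 0.53, beside 0.02 for all tested genes. As they were chosen with earlier results of these data known, these shares and medians are a description only.

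**Figure D1:**
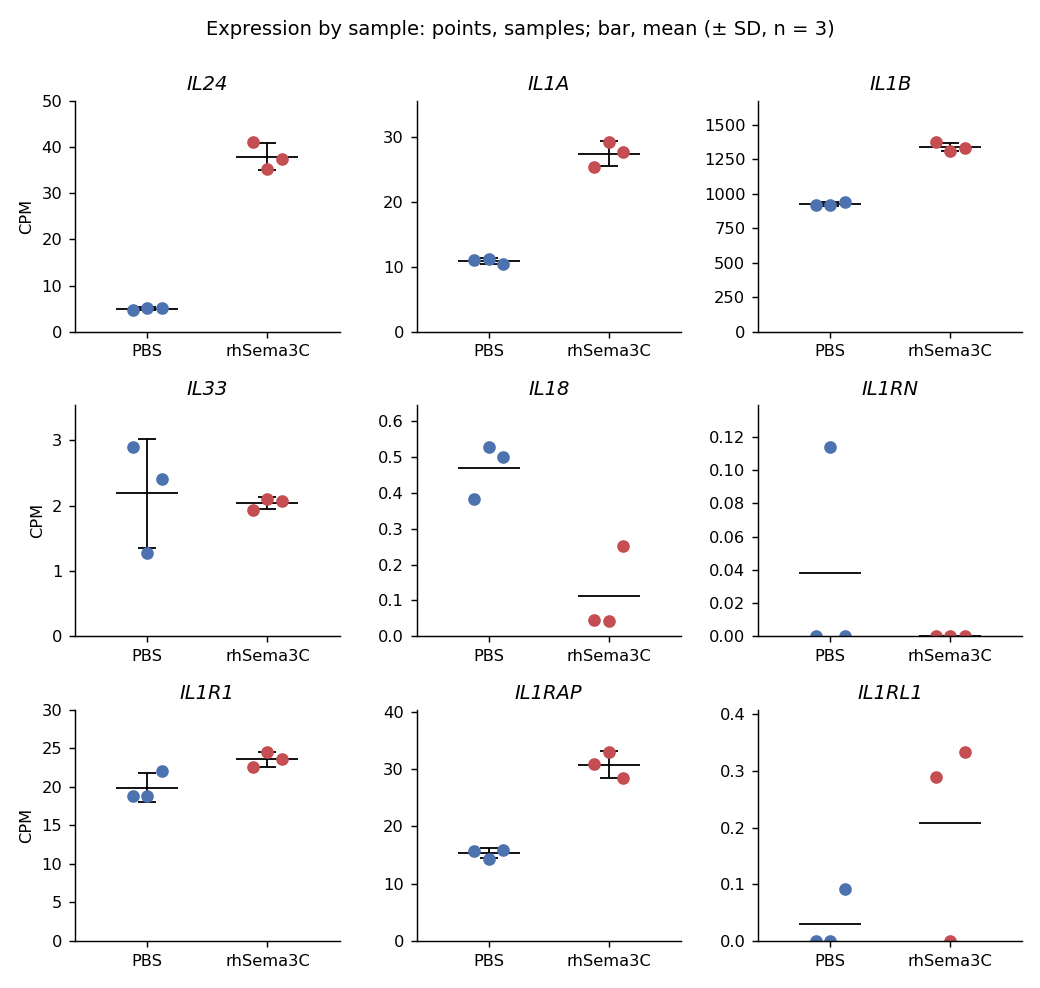
Level of each of the 9 genes in CPM (y axis, linear, scale differs by panel) in the 3 PBS and 3 rhSema3C samples. Points are samples, horizontal lines are means and bars are the SD, which is left out for IL18, IL1RN and IL1RL1. IL24, IL1A, IL1B and IL1RAP have groups that lie apart, from 5.03 to 38.0 CPM on average for IL24, while the groups of IL33 overlap.

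IL1A, a cytokine that acts as an alarm signal when released from damaged cells, rose by more than 2-fold. IL1A (ENSG00000115008, chr2:112773925-112784493, minus strand) stood at 11.0, 11.3 and 10.5 CPM with PBS and at 25.4, 29.2 and 27.7 CPM with rhSema3C. The groups did not overlap, which held in the higher direction for 34.6% of all tested genes. The means were 10.9 ± 0.401 and 27.4 ± 1.93 CPM (SD, n = 3), a 2.51-fold rise. On the log2 scale the change was 1.33 (SE 0.09, edgeR adjusted p = 2.4e-07). This gene is the only one of the 3 rising cytokines whose window printed above carries searched letters.

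IL1B, the cytokine that inflammasomes release after cleavage by caspase 1, was by far the most abundant of the 9 transcripts in both groups. IL1B (ENSG00000125538, chr2:112829751-112836816, minus strand) lies beside IL1A on chromosome 2. It stood at 921, 919 and 944 CPM in the PBS samples and at 1372, 1312 and 1331 CPM in the rhSema3C samples. All 3 rhSema3C samples lay above all PBS samples, with little spread inside a group. The means were 928 ± 13.7 and 1338 ± 30.4 CPM (SD, n = 3), a 1.44-fold rise. On the log2 scale the change was 0.53 (SE 0.04, edgeR adjusted p = 4.8e-07). Per length, IL1B held rank 95 of the 33900 genes with PBS and rank 49 with rhSema3C.

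Leukocytes also make IL1B, and of 11 of their markers 8 were in the table. Of these, CD68 and CD14 entered the test and fell, as did 30.6% of all tested genes. The 8 markers summed to 95.5 to 104 FPKM with PBS and 67.8 to 73.5 FPKM with rhSema3C. Most of it was CD68, a lysosomal protein, at 214 ± 10.5 and 143 ± 6.55 CPM (SD, n = 3). CD14 was at 4.16 to 5.18 FPKM with PBS and 2.67 to 3.23 FPKM with rhSema3C. CSF1R, LYZ and ITGAM were at most 0.612, 0.400 and 0.293 FPKM in any sample. PTPRC, the leukocyte common antigen, CD163, and CD3E, a T cell receptor chain, were at most 0.0143, 0.0159 and 0.0181 FPKM. Whether any leukocyte contributed to IL1B was not tested.

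IL1A was higher relative to IL1B in every rhSema3C sample. The FPKM of IL1A was 1.78%, 1.83% and 1.66% of that of IL1B in the PBS samples and 2.76%, 3.32% and 3.11% in the rhSema3C samples. The rhSema3C samples were all higher, with means of 1.76% ± 0.0882 and 3.06% ± 0.283 (SD, n = 3). The share was 1.74-fold higher with rhSema3C (two-sided exact permutation test, p = 0.1, which is the smallest value such a design can give).

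IL33, a nuclear cytokine released by dying barrier and stromal cells, was low and showed no difference past the test. IL33 (ENSG00000137033, chr9:6215786-6257982, plus strand) stood at 2.90, 1.27 and 2.41 CPM with PBS and at 1.94, 2.11 and 2.08 CPM with rhSema3C. The PBS samples spread widely and enclosed all the rhSema3C samples. On the log2 scale the change was -0.10 (SE 0.27, edgeR adjusted p = 0.76). Its sign depended on the scaling and on PBS replicate 1, without which the log2 fold change was 0.15.

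IL18, a cytokine that induces interferon gamma in lymphocytes, had lower counts in every rhSema3C sample but did not pass the edgeR test. IL18 (ENSG00000150782, chr11:112143253-112164093, minus strand) had 33, 37 and 33 counts in the PBS samples and 4, 4 and 21 counts in the rhSema3C samples. The rhSema3C replicate 3 lay between the other rhSema3C samples and the PBS samples. The groups did not overlap, which held in the lower direction for 16.5% of all 33900 genes. With all genes in the fit, where 12.3% were called lower, the change was -2.06 on the log2 scale (SE 0.72, edgeR adjusted p = 0.070). The same fit gave -3.33 without rhSema3C replicate 3 (adjusted p = 0.0053, edgeR), and DESeq2 gave -2.08 with an adjusted p of 0.028. A gene on the opposite strand, AP002884, covers the whole 20841 bases of IL18 and had 7 to 21 counts per sample.

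IL1RN, the receptor antagonist that blocks IL1A and IL1B, was at the floor of detection. IL1RN (ENSG00000136689, chr2:113107214-113134016, plus strand) had 0, 8 and 0 counts with PBS and 0 counts in all rhSema3C samples. A count of 0 allows at most 0.0326 to 0.0454 CPM, taking 3 counts as the limit and covering counting error only. PBS replicate 2 alone held counts, so no fold change is given. In that sample IL1RN amounted to 0.0104% of the summed FPKM of IL1A and IL1B.

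**Figure D2:**
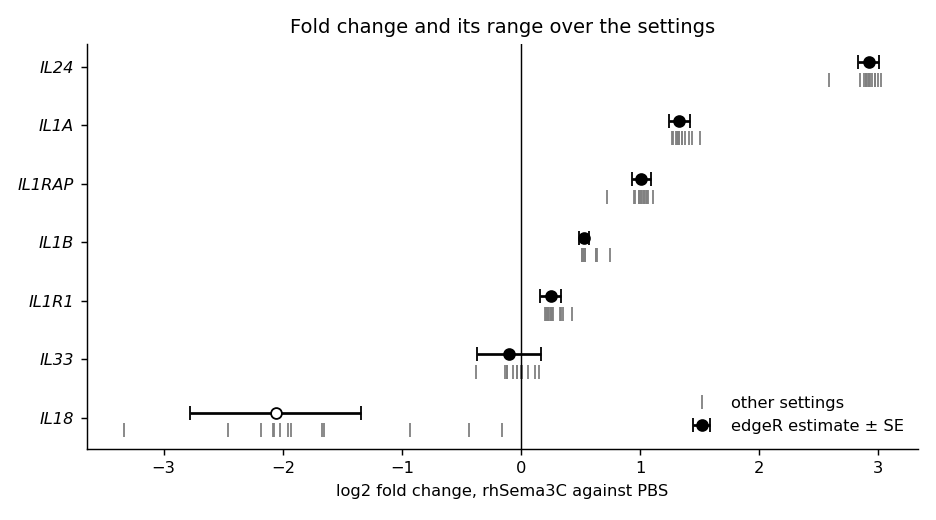
Log2 fold change of rhSema3C against PBS (x axis) for each gene with enough counts (rows), with bars of 1 standard error to each side. Filled circles are from the edgeR fit of 14178 genes, the open circle (IL18) is from the fit of all 33900 genes, and grey ticks are the values under the other settings. IL24 at 2.92 stands highest, IL1A, IL1RAP and IL1B lie above 0 under each setting, and the ticks of IL33 lie on both sides of 0.

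Among the receptor chains, the accessory chain IL1RAP, which IL1R1 and IL1RL1 share, rose. IL1RAP (ENSG00000196083, chr3:190514051-190657196, plus strand) stood at 15.8, 14.3 and 15.9 CPM in the PBS samples and at 30.9, 33.1 and 28.5 CPM in the rhSema3C samples. The groups lay well apart, at means of 15.3 ± 0.899 and 30.8 ± 2.33 CPM (SD, n = 3). The rise was 2.01-fold (log2 fold change 1.01, SE 0.08, edgeR adjusted p = 1.5e-06). It kept its call under every alternative run but was at the edge of 2-fold, with log2 values of 0.99 by DESeq2, 0.99 with all genes in the fit, 0.96 without PBS replicate 2 and 0.95 without rhSema3C replicate 2. IL1RAP is made as a membrane-bound and as a soluble form, and counts per gene do not separate them. Short pseudogenes inside its span, RN7SKP296 and GCNT1P3, had at most 6 counts per sample.

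IL1R1, the signalling receptor of IL1A and IL1B, had a small rise whose call rested on single samples. IL1R1 (ENSG00000115594, chr2:102064544-102179866, plus strand) stood at 18.8, 18.8 and 22.1 CPM with PBS and at 22.6, 24.6 and 23.6 CPM with rhSema3C. The groups did not overlap, but PBS replicate 3 came close to the lowest rhSema3C sample. The means were 19.9 ± 1.92 and 23.6 ± 1.01 CPM (SD, n = 3; log2 fold change 0.25, SE 0.09, edgeR adjusted p = 0.028). The call was lost without PBS replicate 1 (adjusted p = 0.088, edgeR), without PBS replicate 2 (adjusted p = 0.092, edgeR), without rhSema3C replicate 2 (adjusted p = 0.089, edgeR) and without rhSema3C replicate 3 (adjusted p = 0.076, edgeR). It was also lost with all genes in the fit (adjusted p = 0.062, edgeR).

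IL1RL1, the receptor of IL33, was barely detected. IL1RL1 (ENSG00000115602, chr2:102311502-102346099, plus strand) had 0, 0 and 6 counts with PBS and 25, 0 and 28 counts with rhSema3C. One rhSema3C sample was empty, so the groups overlapped. With all genes in the fit the change was 2.77 on the log2 scale (SE 1.73, edgeR adjusted p = 0.31), a value that depends on how counts of 0 are treated. The same fit gave 7.12 without PBS replicate 3, which leaves the PBS group at 0 counts (adjusted p = 0.12, edgeR), and between 2.17 and 3.36 without any other sample. Of its 34598 bases, 34571 are shared with IL18R1 on the same strand, so the split of reads between them is uncertain. IL1RL1 is also made in a soluble decoy form, which counts per gene do not separate.

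**Figure D3:**
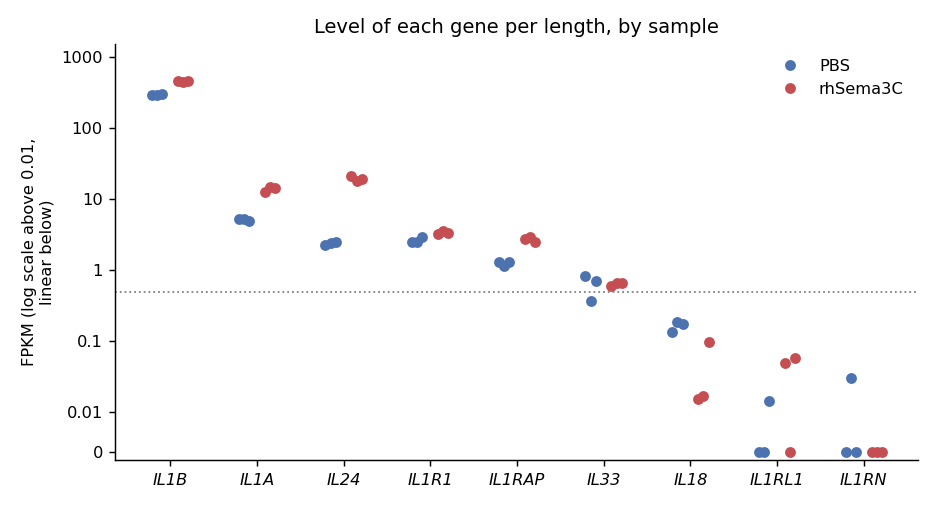
Level per transcript length in FPKM (y axis, log scale above 0.01 and linear below) of the 9 genes (x axis), with 1 point per sample, PBS in blue and rhSema3C in red. The dotted line marks the filter at 0.5 FPKM, which was applied to the mean of the 6 samples. IL1B lies at 286 to 460.2 FPKM, IL24 passes IL1A with rhSema3C, and IL18, IL1RL1 and IL1RN stay below the line.

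Ordered by FPKM, IL1B came first in the PBS samples with 291 FPKM, followed by IL1A with 5.10, IL1R1 with 2.63, IL24 with 2.39, IL1RAP with 1.25, IL33 with 0.633 and IL18 with 0.165. IL1R1 and IL24 overlapped between samples there, as did IL1RN and IL1RL1 at the bottom. With rhSema3C the order became IL1B with 450.2 FPKM, IL24 with 19.4, IL1A with 13.8, IL1R1 with 3.35, IL1RAP with 2.69, IL33 with 0.634 and IL18 with 0.0431. IL24 thus moved from below IL1R1 to above IL1A, from 0.469 to 1.41 times the FPKM of IL1A. The neighbours from IL1B down to IL18 did not overlap between rhSema3C samples, whereas IL18 overlapped IL1RL1, and IL1RL1 overlapped IL1RN. Per length, IL1B exceeded IL1A 57.0-fold with PBS and 32.7-fold with rhSema3C. IL1R1 exceeded its accessory chain IL1RAP 2.11-fold and 1.24-fold.

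The partners of these cytokines were read from lists of pathway genes. Over all lists, 60 of 65 genes were in the table and 46 entered the test. Of these, 18 rose, 19 fell and 9 did not pass, against 31.7% higher and 30.6% lower among all tested genes. Their median log2 fold change was -0.04. Scaled by library size only, 20 were called higher and 11 lower, and limma on TPM values called 20 higher and 8 lower.

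Among the receptors of IL24, the chain IL20RB was the only one of the 46 tested pathway genes that rose by more than 2-fold. Under the filter, IL20, IL18R1 and NLRC4 also did in the fit of all genes. The span of IL20RB overlaps that of NCK1 on the same strand. IL20RB stood at 2.74, 2.51 and 2.86 CPM with PBS and at 7.09, 9.19 and 9.03 CPM with rhSema3C. All rhSema3C samples were higher (log2 fold change 1.64, SE 0.15, edgeR adjusted p = 2.9e-06). IL22RA1, the chain that can pair with IL20RB to bind IL24, gave -0.01 on the log2 scale (SE 0.21, edgeR adjusted p = 0.97). IL20RA, the other partner chain, had at most 0.0112 FPKM with PBS and was listed at 0 in all rhSema3C samples. Over the 14 genes of the IL20 subfamily, its receptors and its signalling, 9 entered the test. Of these, 3 rose, 2 fell and 4 did not pass, against 31.7% higher and 30.6% lower among all tested genes. At the bottom of this list, SOCS3, a feedback inhibitor of STAT signalling, gave -0.23 on the log2 scale (SE 0.07, edgeR adjusted p = 0.015), but -0.12 when scaled by library size only (edgeR adjusted p = 0.15) and 0.00 with TPM values.

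Around IL24 on chromosome 1, 8 neighbouring genes were listed and 3 entered the test. DYRK3, a protein kinase, rose from 37.2 ± 0.366 CPM with PBS to 82.9 ± 2.81 CPM with rhSema3C (SD, n = 3; log2 fold change 1.16, SE 0.05, edgeR adjusted p = 1.2e-08). MAPKAPK2, a kinase downstream of p38, fell (log2 fold change -0.34, SE 0.04, edgeR adjusted p = 2.5e-05). FCMR did not pass. The cytokine gene IL20, named here after its values were seen, stood at 0.0814, 0.129 and 0.0756 CPM with PBS and at 0.554, 0.424 and 0.430 CPM with rhSema3C. IL20 was higher in every rhSema3C sample but stayed under the filter, and with all genes in the fit, where 12.5% were called higher, its change was 2.27 on the log2 scale (SE 0.50, edgeR adjusted p = 0.0077). IL10 and IL19 were at most 0.0155 and 0.0308 FPKM in any sample.

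Of the other ligands and receptors of the IL1 family, only the inhibitory proteins SIGIRR and IL18BP passed the filter. Of 6 other ligands 4 were in the table, and none exceeded 0.657 FPKM in any sample. The decoy receptor IL1R2, which captures IL1 without signalling, was at most 0.0938 FPKM. IL18R1, the ligand-binding chain for IL18, had a log2 fold change of 1.33 with all genes in the fit (adjusted p = 0.030, edgeR), at 0.0530 to 0.282 FPKM and with most of the span of IL1RL1 inside its own, a call that was lost under 6 alternatives. The secreted inhibitor IL18BP gave -0.01 on the log2 scale (SE 0.12, edgeR adjusted p = 0.97). SIGIRR, an inhibitory receptor of the family, fell (log2 fold change -0.27, SE 0.08, edgeR adjusted p = 0.014), a call that was lost when only library size was used for scaling (-0.17, edgeR adjusted p = 0.10) and with TPM values (-0.05, limma adjusted p = 0.52).

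Genes that carry the signal of the IL1 receptor moved in both directions. All 18 entered the test. Of these, 9 rose, 7 fell and 2 did not pass, against 31.7% higher and 30.6% lower among all tested genes. The median log2 fold change of the 18 was 0.12. PELI1, a ubiquitin ligase that acts on the IRAK kinases, was at the top. Its rise was from 10.3 ± 0.933 CPM with PBS to 19.3 ± 1.52 CPM with rhSema3C (SD, n = 3; log2 fold change 0.90, SE 0.10, edgeR adjusted p = 1.6e-05). MYD88, the adaptor that IL1R1 and IL1RAP recruit, was at the bottom. It stood at 61.9, 73.6 and 67.0 CPM with PBS and at 38.6, 35.9 and 40.2 CPM with rhSema3C. Every rhSema3C sample was lower (log2 fold change -0.82, SE 0.07, edgeR adjusted p = 2.1e-06). The ligands IL1A and IL1B and the accessory chain IL1RAP thus rose while the MYD88 transcript fell, and the other signalling genes went both ways.

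Genes that process and release IL1 cytokines were likewise split. Of 19 genes, 17 entered the test, with a median log2 fold change of -0.22. Of the 17, 6 rose, 9 fell and 2 did not pass, against 31.7% higher and 30.6% lower among all tested genes. The 9 that fell included PYCARD (log2 fold change -0.64, edgeR adjusted p = 0.0054) and GSDMD (-0.5, edgeR adjusted p = 2e-05). NLRP3 fell as well (-0.29, edgeR adjusted p = 0.012), and these genes too were named after their values were seen. CASP4, a caspase that senses bacterial lipopolysaccharide inside the cell, rose from 84.1 ± 4.32 CPM with PBS to 128 ± 1.11 CPM with rhSema3C (SD, n = 3; log2 fold change 0.61, SE 0.05, edgeR adjusted p = 7.9e-07). CASP1, which cleaves IL1B and IL18 and was named here after its values were seen, stood at 30.2 ± 1.98 and 43.2 ± 4.82 CPM (SD, n = 3; log2 fold change 0.51, SE 0.09, edgeR adjusted p = 3e-04). NLRC4, an inflammasome sensor, stayed under the filter at 0.244, 0.400 and 0.151 CPM with PBS and at 0.981, 1.10 and 1.23 CPM with rhSema3C (log2 fold change 2.03, SE 0.39, edgeR adjusted p = 0.0038, all genes in the fit). CAPN1, a calpain subunit of the protease that trims IL1A, fell from 459 ± 17.7 CPM with PBS to 286 ± 12.3 CPM with rhSema3C (SD, n = 3; log2 fold change -0.68, SE 0.05, edgeR adjusted p = 3.8e-07).

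**Figure D4:**
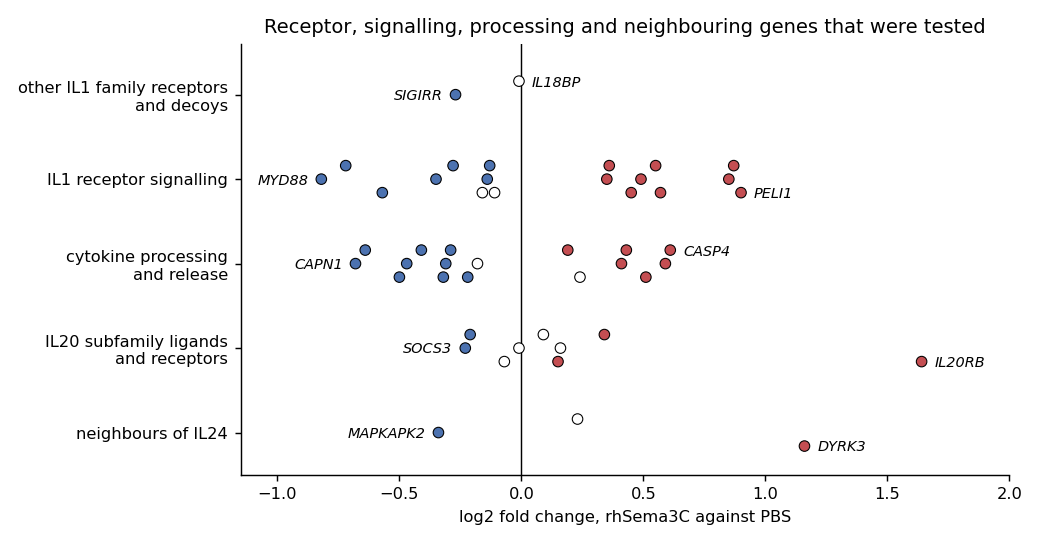
Log2 fold change (x axis) of each tested gene of the pathway lists, one row per list. Red points were called higher, blue points lower and white points did not pass an adjusted p of 0.05. IL20RB at 1.64 is the farthest point to the right among the pathway lists, and the signalling and processing lists hold points on both sides of 0, down to MYD88 at -0.82.

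The genes whose profile lay nearest to that of IL24 were ALDH1L2, DDIT4, NDRG1, IL21R and INHBE. Likeness was the root mean square difference of log2(CPM + 0.5), centred on the PBS mean, over the 6 samples, and was 0.10, 0.15, 0.27, 0.33 and 0.34 for the 5 genes. ALDH1L2 encodes a mitochondrial folate enzyme, DDIT4 an inhibitor of mTORC1, NDRG1 a stress-induced protein, IL21R a cytokine receptor chain and INHBE an inhibin subunit. Their log2 fold changes were 2.82, 2.62, 2.45, 2.73 and 2.98, beside 2.92 for IL24. Since IL24 was picked for its rise, these genes share that size of change by the choice of measure.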

How the data were processed

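RNA from 6 samples of LX-2 cells, 3 with rhSema3C and 3 with PBS, was sequenced on an Illumina NovaSeq instrument from libraries of an mRNA kit, and the paper's methods name Cufflinks and cuffmerge. For each gene and sample the authors deposited a raw whole-number count and an FPKM value, in which they scaled counts by transcript length and depth. The aligner, counting tool, strand setting and genome build are not given in the sources used here. The table's coordinates lie on GRCh38, since 99.9% of 32887 gene IDs matched to GENCODE overlapped their annotated position. Without molecular identifiers, counts are not molecules, and limits cover counting error only.

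Groups, dose and time came from the labels. Counts of the 14178 of 33900 genes whose FPKM averaged at least 0.5 were scaled by TMM and fitted with edgeR 4.0.16 (quasi-likelihood test, both groups, no covariates) in R 4.3.3, with Benjamini-Hochberg adjustment over all tested genes. The 3 members under the filter, IL20, IL18R1 and NLRC4 were taken from a fit of all genes, a choice made after seeing the data. Alternatives were DESeq2 1.42.0, other scalings, limma 3.58.1 on log2(FPKM + 1), log2(FPKM + 0.1) and log2(TPM + 1), other filters, the replicate number as a block, and fits without each sample in turn. The fits were also run on simulated counts, in which far fewer genes were changed than were called here. That run checked the code and does not measure error rates in these data. The members and lists were chosen with earlier results of these data known. Named genes were the members, listed genes past a fold change of 2 or at the top or bottom of a list, receptors and decoys of a member, and the 5 genes nearest to IL24; markers of other cell types and further exceptions were named for their values. Promoter windows came from RefSeq.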

Additional observations from a re-analysis of the deposited data

How the results depend on the processing

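Under 15 alternatives 3 or 4 of the 5 members other than IL24 that passed the filter were called higher and 0 lower. IL1A (1.27 to 1.5), IL1B (0.51 to 0.75) and IL1RAP (0.72 to 1.11) kept direction and call under each, IL24 ranged from 2.59 to 3.02, and IL1R1 lost its call in 5. IL18, under the filter, was lower past the threshold in 4 (DESeq2, limma on log2(FPKM + 1) and log2(TPM + 1), and without rhSema3C replicate 3). With samples left out in turn, the pathway genes called higher were 16 to 19 and lower 16 to 18. The pathway genes called lower were 11 with library size scaling, 12 with limma on log2(FPKM + 1), 12 on log2(FPKM + 0.1) and 8 on log2(TPM + 1), and these settings raised the median log2 fold change of all tested genes from 0.02 to 0.13, 0.09, 0.12 and 0.23. In that order, the sign turned for uncalled IL33 (0.00, 0.01, 0.06, 0.12), IL22RA1 (0.10, 0.05, 0.10, 0.18) and IL18BP (0.10, 0.06, 0.09, 0.19), and SOCS3 was 0.00 with TPM. With a mean FPKM of at least 1, IL22RA1 and IL18BP were at 0.01. With samples left out, IL33 ranged from -0.38 to 0.15, IL22RA1 from -0.18 to 0.13, IL18BP from -0.09 to 0.05, IL18 from -3.33 to -1.65 and IL1RL1 from 2.17 to 7.12. IL33 gave no value with the filter at 1.

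Same-numbered samples did not deviate together (correlations -0.077, -0.046 and -0.036). With 3 samples per group this cannot settle whether they were set up in pairs, which the labels do not say. With the replicate block, 4 members were called higher and 0 lower, and 16 pathway genes were higher and 17 lower. In that fit IL22RA1 was at 0.01, and IL18R1 (adjusted p = 0.11, edgeR) lost its call. Depth limits IL18, IL1RN and IL1RL1, which had at most 37 counts in a sample.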
